A study of Mus musculus with 8 samples.

Results

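The genes described here are the collagens and a set of fibrous matrix genes of the mouse trigeminal ganglion, which houses the neurons that carry touch, pain and temperature from the face. The collagens are all genes whose symbol has the form Col1a1 and which had a probe set assigned to that symbol alone, 42 in number. To these were added 9 genes of the fibrous matrix, namely Postn, Fn1, Dcn, Lum, Ogn, Dpt, Thbs4, Fbln1 and Mfap5. These 51 genes are 51 of 18193 genes measured on the array, and each was read at its brightest probe set, with the remaining 46 of their 97 probe sets used as a check. Expression was measured on 8 Affymetrix mouse arrays, 4 of ganglia from daDREAM transgenic mice whose titles carry the tag tg16 and 4 of ganglia from control mice. DREAM (gene Kcnip3) represses transcription until calcium releases it from DNA, and daDREAM is a mutant form made to stay active. All animals, in both groups, were adult males of the C57B/6XCBA background sampled in the light phase, per the labels. The sources used here do not give the promoter that drives the transgene, the cells that carry it, or whether an array holds 1 animal or a pool. P-values therefore measure the spread between these samples. Values are log2 RMA expression, a log2 scale on which 1 unit is a doubling of signal, differences are daDREAM minus control, and a gene passed at a limma adjusted p under 0.05 over all 18193 genes.

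Collagens are helical proteins with a glycine-rich repeat, and they differ in what they build. Fibrillar collagens form the cables of connective tissue, type IV forms the sheet-like network of basement membranes, type VI forms beaded filaments around cells, and fibril-associated collagens sit on the surface of fibrils. In a peripheral ganglion, fibroblasts of the endoneurium and epineurium, the perineurium and the meningeal covering make fibrils, while Schwann cells, satellite glia and vessels lie on basement membranes. Decorin, lumican and osteoglycin (Dcn, Lum, Ogn) are small leucine-rich proteoglycans that bind fibrils and set their diameter, and periostin and thrombospondin 4 (Postn, Thbs4) are matricellular proteins that bind collagen and cell surface receptors. In whole ganglia, fewer cells of a type and less RNA per cell cannot be told apart.

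Kcnip3 itself read 10.16 to 10.31 on daDREAM arrays and 10.10 to 10.42 on control arrays, so its brightest probe set did not tell the groups apart, and whether the probe set lies in the transgene was not tested. Several arrays stood apart in ways that bear on matrix genes. Although all animals are labelled as male, Xist, the RNA of the inactive X chromosome, read 11.51 on daDREAM replicate 4 and 10.20 and 11.72 on control replicates 3 and 4, against 6.10 to 6.49 on the other 5 arrays. The Y-linked gene Eif2s3y read 4.46 on daDREAM replicate 4 and 7.16 on control replicate 4, against 8.40 to 9.04 elsewhere. These 3 arrays are called the arrays with Xist signal below. Skeletal muscle actin (Acta1) was high on control replicates 1 and 3 (9.20 and 9.40, against 6.60 to 7.07 elsewhere). Growth hormone (Gh) was highest on daDREAM replicates 4 and 3 and control replicate 3 (13.43, 12.50 and 11.15, against 9.04 to 10.66 elsewhere). Control replicate 3 thus lay close to daDREAM replicate 1 (10.66) in Gh. The 3′ probe set of 18S, like the other 18S control probe sets, was high on control replicates 1 and 4 (10.00 and 11.06, against 8.33 to 8.66 elsewhere). Of 10 listed sensory neuron markers 9 were measured, none with both group means under 6, and peripherin (Prph) read 12.93 to 13.02 on daDREAM arrays and 12.89 to 13.09 on control arrays.

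Across the 51 genes 1 passed the test, Postn, which was higher in daDREAM ganglia. That is 1.96% of the genes, against 2.00% of all 18193 genes (364 called, 0.984% higher and 1.02% lower), so the number called is at the background of the array. Groups did not overlap in 5 of the 51 genes (9.8%), against 10.7% of all genes: all daDREAM arrays lay above all control arrays in Postn, and below them in Dcn, Thbs4, Col6a4 and Col4a6. At an unadjusted p under 0.05 there were 8 genes (15.7%), against 18.2% of all genes. Differences lay above 0 in 25 genes and below 0 in 26, with a median of -0.005 against 0.0 over all genes. All 42 collagens lay within 0.4 log2 units of their control mean, and 0 of them passed with limma, while 4 of the 51 genes, all collagens, had both group means under 6 on the log2 scale, which was taken as near background (Col4a3, Col6a5, Col10a1 and Col17a1).

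**Figure D1:**
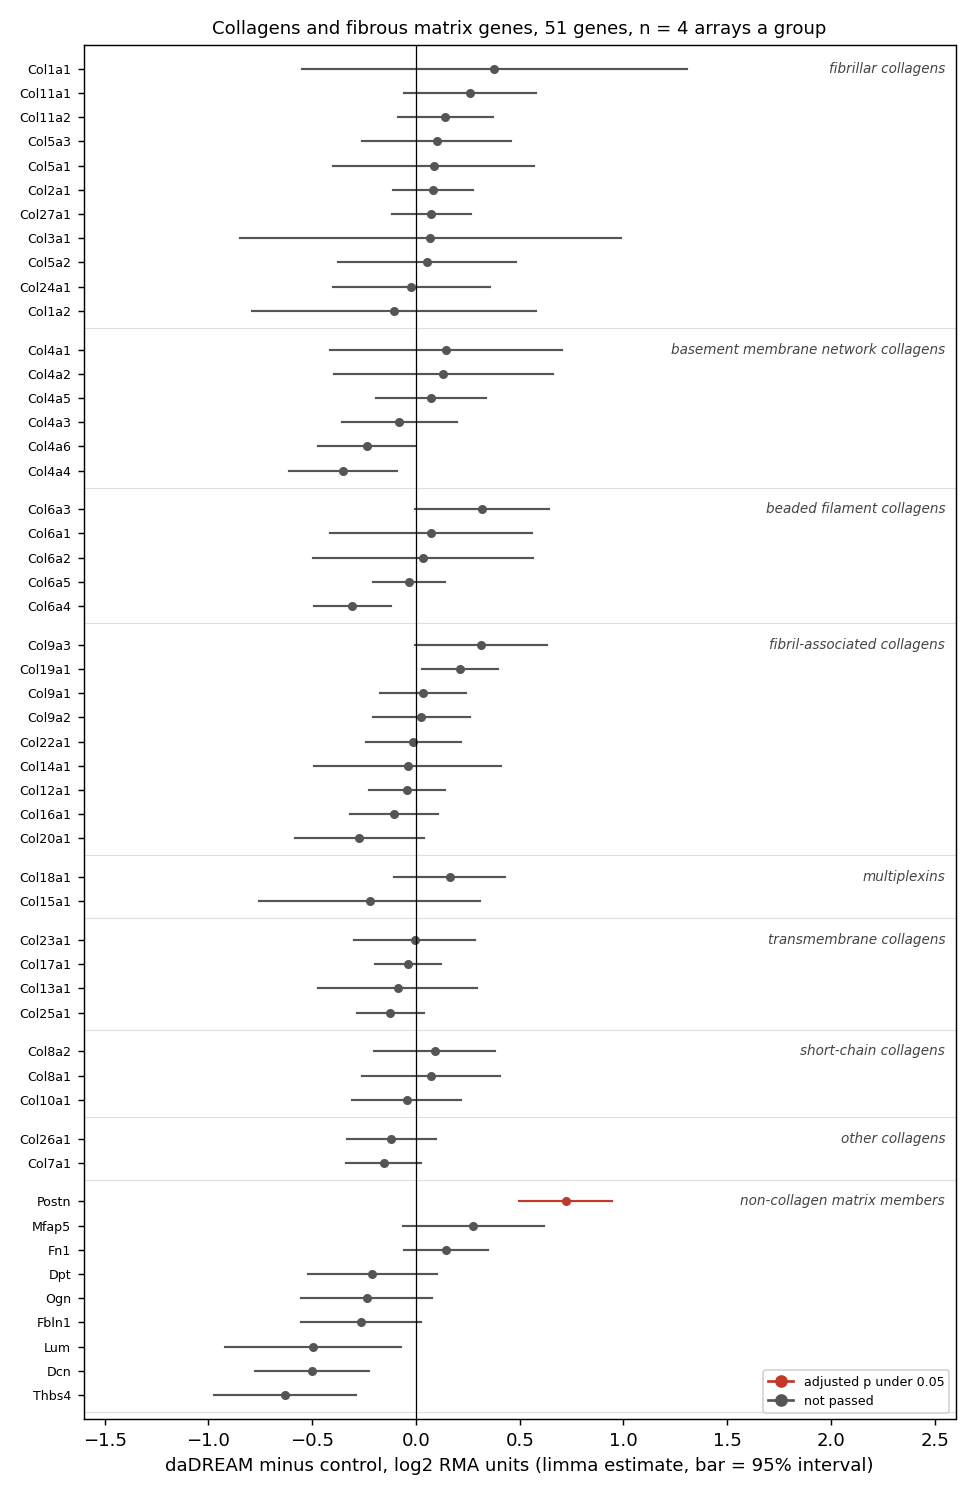
Difference of each of the 51 genes between groups, daDREAM minus control in log2 RMA units (x axis), with genes grouped by role down the page. Points are limma estimates, bars their 95% intervals, n = 4 arrays a group. Postn, at 0.72, is the gene that passed the test (red), and the widest intervals belong to Col1a1 and Col3a1.

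Among the 9 matrix genes that are not collagens, 1 rose, 0 fell and 8 did not pass, and the 3 largest negative differences were those of Thbs4, Dcn and Lum. Periostin (Postn), a matricellular protein that binds collagen and integrins and is laid down in remodelling matrix, read 9.69, 9.55, 9.33 and 9.75 on daDREAM arrays, against 8.83, 8.85, 8.72 and 9.03 on control arrays. Every daDREAM array lay above every control array. It averaged 9.58 ± 0.19 in daDREAM ganglia and 8.86 ± 0.13 in control ganglia (SD, n = 4 each), which is 1.65-fold higher (difference 0.72, SE 0.10, limma adjusted p = 0.0031). Postn is represented by 1 probe set, so no further probe set of the gene could check it. Without the 3 arrays with Xist signal the difference was 0.68 and Postn still passed, while without control replicates 1 and 3, the arrays with most Acta1, it was 0.64 with an adjusted p of 0.0675.

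Thrombospondin 4 (Thbs4), a collagen-binding glycoprotein of tendon, muscle and nerve, read 7.62, 7.45, 6.84 and 7.63 on daDREAM arrays, against 7.87, 8.17, 7.96 and 8.07 on control arrays. The groups did not overlap, and daDREAM replicate 3 was the lowest. The difference of -0.63 (95% interval -0.98 to -0.29) missed the threshold, with a limma adjusted p of 0.070. The gene passed when each gene was read at its probe set of largest SD, which leaves the difference of Thbs4 as it is and changes the values of other genes in the fit (adjusted p = 0.048). Decorin (Dcn), which binds collagen fibrils and TGF-beta, read 13.16, 12.66, 12.64 and 13.10 on daDREAM arrays, against 13.24, 13.45, 13.38 and 13.50 on control arrays. Here too the groups did not overlap, and daDREAM replicates 2 and 3 were the lowest. The difference was -0.50 (95% interval -0.78 to -0.23, adjusted p = 0.072), and the second, much dimmer Dcn probe set differed by -0.025. Dcn passed when daDREAM replicate 1 was left out (-0.59, adjusted p = 0.041) and with array weights (-0.54, adjusted p = 0.046), and the mean of its probe sets differed by -0.26 (adjusted p = 0.24).

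Lumican (Lum), which regulates fibril assembly, read 11.59, 10.97, 10.94 and 11.90 on daDREAM arrays, against 11.79, 11.88, 11.66 and 12.06 on control arrays. The groups overlapped, and daDREAM replicates 2 and 3 again lay lowest, as for Dcn. Its difference was -0.50 (95% interval -0.92 to -0.07, limma adjusted p = 0.21). Osteoglycin (Ogn), a relative of lumican, read 12.27, 12.11, 11.97 and 12.65 on daDREAM arrays, against 12.38, 12.32, 12.46 and 12.79 on control arrays. The groups overlapped, with a difference of -0.24 at this probe set and -0.27 at the other (limma adjusted p = 0.40 over genes and 0.25 over probe sets).

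Fibulin 1 (Fbln1), which links fibronectin, laminin and elastic fibres, read 8.13, 8.13, 8.22 and 8.27 on daDREAM arrays, against 8.48, 8.18, 8.26 and 8.88 on control arrays. The groups overlapped, and the probe sets gave opposite signs, -0.26 at the brightest (limma adjusted p = 0.32) and 0.32 and 0.46 at the others, none passing. Mfap5, a glycoprotein of fibrillin microfibrils, read 10.69, 10.32, 10.26 and 11.03 on daDREAM arrays, against 10.31, 10.47, 10.10 and 10.31 on control arrays. Replicates 1 and 4 of the daDREAM group lay above all control arrays and the others did not (difference 0.28, limma adjusted p = 0.36), and the other probe set differed by 0.25. Fibronectin (Fn1), the adhesive scaffold on which collagen is deposited, read 9.58, 9.48, 9.55 and 9.74 on daDREAM arrays, against 9.24, 9.54, 9.58 and 9.41 on control arrays. The groups overlapped, and the difference of 0.15 had a 95% interval of -0.06 to 0.35. Dermatopontin (Dpt), a small decorin-binding protein, lay close to background at 5.45 to 6.19 in daDREAM ganglia and 6.06 to 6.26 in control ganglia.

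**Figure D2:**
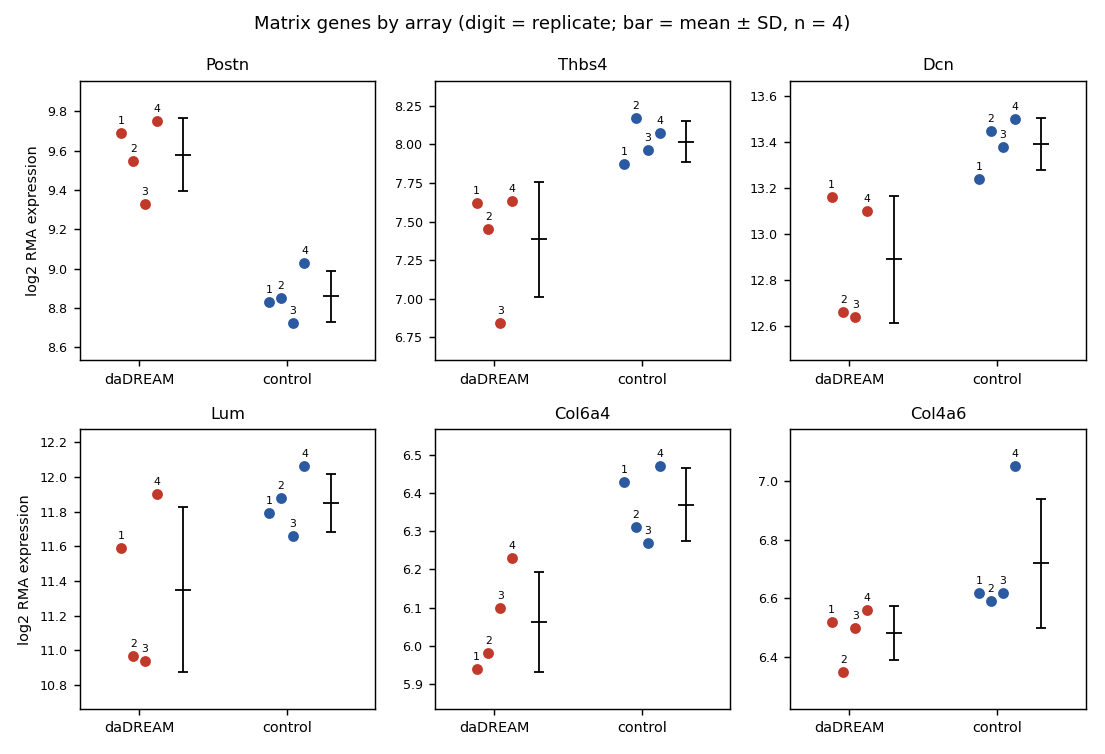
Log2 RMA expression (y axis, not starting at 0) of Postn, Thbs4, Dcn, Lum, Col6a4 and Col4a6 on each array, daDREAM on the left and control on the right of each panel. Points are arrays marked with their replicate number, and the bar beside them is the mean ± SD, n = 4. The lowest daDREAM array of Postn lies at 9.33 and the highest control array at 9.03, while in Lum the groups overlap.

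Promoter sequence is shown for Postn, which passed, for Thbs4, which had the largest negative difference, and for Col1a2 and Col3a1, fibrillar collagens that both peaked on daDREAM replicate 4. The windows are the 250 bases before each start in RefSeq's annotation (GRCm38.p6), 5′ to 3′ on the gene's strand, and RefSeq's table held such windows for 38 of the 51 genes. Capitals mark 4 motifs, each searched on both strands. The letters TATAAA are those of the box that positions the start of transcription, CCAAT is the box bound by the factor NF-Y, GGGCGG is the box bound by Sp1 and called a GC box here, and GTCA is the core of the element to which DREAM binds. A TGAC in capitals is a GTCA on the opposite strand, and CCGCCC is a GC box on the opposite strand. Adjoining motifs run together in Thbs4, where a GC box meets the GTCA.
Postn, upstream start, chr3:54359017-54359266 (+): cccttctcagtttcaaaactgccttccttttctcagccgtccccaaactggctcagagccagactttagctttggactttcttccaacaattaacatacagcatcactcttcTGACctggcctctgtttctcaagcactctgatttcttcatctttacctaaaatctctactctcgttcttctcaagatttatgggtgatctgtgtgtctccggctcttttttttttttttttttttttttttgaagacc
Postn, downstream start, chr3:54360857-54361106 (+): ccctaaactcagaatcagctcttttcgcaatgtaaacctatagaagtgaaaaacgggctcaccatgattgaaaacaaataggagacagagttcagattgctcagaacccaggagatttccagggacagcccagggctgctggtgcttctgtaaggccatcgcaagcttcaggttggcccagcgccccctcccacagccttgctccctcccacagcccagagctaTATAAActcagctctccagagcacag
Thbs4, chr13:92794819-92795068 (-): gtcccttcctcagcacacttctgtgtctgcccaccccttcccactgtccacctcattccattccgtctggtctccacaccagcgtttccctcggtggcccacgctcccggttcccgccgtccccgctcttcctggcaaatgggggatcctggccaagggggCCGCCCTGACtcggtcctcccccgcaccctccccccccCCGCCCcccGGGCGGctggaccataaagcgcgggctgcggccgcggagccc
Col1a2, chr6:4505368-4505617 (+): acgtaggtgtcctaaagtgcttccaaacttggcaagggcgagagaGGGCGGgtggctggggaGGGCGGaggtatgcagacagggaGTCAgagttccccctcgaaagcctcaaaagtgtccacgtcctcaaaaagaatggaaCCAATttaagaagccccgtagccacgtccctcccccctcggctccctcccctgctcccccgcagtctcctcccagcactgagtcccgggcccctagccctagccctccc
Col3a1, chr1:45311288-45311537 (+): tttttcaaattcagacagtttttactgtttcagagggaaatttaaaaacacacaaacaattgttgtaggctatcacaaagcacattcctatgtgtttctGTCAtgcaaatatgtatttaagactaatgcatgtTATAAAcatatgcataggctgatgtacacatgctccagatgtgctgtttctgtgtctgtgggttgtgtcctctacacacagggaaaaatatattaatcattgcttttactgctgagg
The downstream start of Postn has a TATAAA beginning 26 bases before it, and its upstream start has a GTCA at -138. Col1a2 holds a CCAAT at -109 and 2 GC boxes, Thbs4 holds 3 GC boxes, and Col3a1 holds a TATAAA at -117. GTCA was present in the windows of Thbs4, Col1a2 and Col3a1 and in 80.2% of all 32851 windows of this length, so most windows of the genome hold it. Over the 43 windows of the 38 matched genes, 72.1% held GTCA, 53.5% a GC box (32.7% of all windows), 30.2% a CCAAT (33.8%) and 16.3% a TATAAA (12.4%). These matches are letters in a window and not measured binding.

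Of the 11 fibrillar collagens 0 passed, 9 differences lay above 0 and 2 below, and the median was 0.08. The chains of type I and type III collagen, the main fibrils of connective tissue, varied more within a group than between groups. Col1a1, which encodes the alpha 1 chain of type I, read 9.42, 8.98, 9.49 and 11.27 on daDREAM arrays, against 8.71, 9.27, 9.78 and 9.89 on control arrays. Replicate 4 stood above the other daDREAM arrays, and the rest of that group lay within the control range. The difference of 0.38 had a 95% interval of -0.55 to 1.31 (limma adjusted p = 0.66). Without daDREAM replicate 4 it was -0.12.

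Col1a2, the alpha 2 chain of type I, read 11.65, 11.44, 11.79 and 12.95 on daDREAM arrays, against 11.51, 11.82, 12.28 and 12.64 on control arrays (difference -0.11, 95% interval -0.79 to 0.58). Col3a1, the chain of type III, read 10.46, 10.02, 10.56 and 12.25 on daDREAM arrays, against 10.10, 10.59, 10.84 and 11.48 on control arrays (difference 0.07, 95% interval -0.85 to 0.99). In all 3 genes daDREAM replicate 4 was the highest of the 8 arrays. Fits with the arrays with Xist signal as a block, chosen after seeing the data, gave 0.71 for Col1a1, 0.15 for Col1a2 and 0.39 for Col3a1, none passing (limma adjusted p = 0.15, 0.62 and 0.44). The minor fibrillar chains, which are built into type I fibrils and set their nucleation, also did not pass: Col5a1, Col5a2 and Col5a3 differed by 0.09, 0.06 and 0.10. Col11a1, the cartilage-type chain related to type V, read 7.37, 7.44, 7.46 and 7.77 on daDREAM arrays, against 6.97, 7.06, 7.68 and 7.29 on control arrays. Control replicate 3 lay among the daDREAM arrays, the difference was 0.26 (limma adjusted p = 0.37), and the other probe set differed by 0.07. The differences of Col11a2, Col2a1, Col24a1 and Col27a1 were -0.02 to 0.14.

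Type IV collagens, the network of basement membranes, come as gene pairs that lie head to head. In RefSeq the starts of Col4a1 and Col4a2 lie 21 bases apart on opposite strands of chromosome 8, and those of Col4a5 and Col4a6 lie 1343 bases apart on the X chromosome. Col4a1 read 10.47, 10.33, 10.63 and 11.61 on daDREAM arrays, against 10.18, 10.52, 11.02 and 10.74 on control arrays. Col4a2 read 8.96, 8.93, 9.13 and 10.17 on daDREAM arrays, against 8.85, 9.10, 9.40 and 9.31 on control arrays. The pair peaked on the same array, daDREAM replicate 4, and had nearly the same difference, 0.15 and 0.13, neither passing. Col4a4, a chain of specialised basement membranes, read 6.31, 5.96, 6.28 and 6.57 on daDREAM arrays, against 6.54, 6.52, 6.70 and 6.77 on control arrays. Its difference of -0.35 had a 95% interval of -0.61 to -0.09 (limma adjusted p = 0.16). A second, similarly dim Col4a4 probe set differed by -0.39, and the last, under 6 in both groups, by -0.09. Col4a6 read 6.52, 6.35, 6.50 and 6.56 on daDREAM arrays, against 6.62, 6.59, 6.62 and 7.05 on control arrays. The groups did not overlap, although the gap was narrow, and the difference of -0.24 did not pass (limma adjusted p = 0.27). Its pair partner Col4a5 differed by 0.07. Both Col4a4 and Col4a6 read close to the level of 6 taken as near background. The other Col4a6 probe set, under 6 in both groups, differed by -0.05.

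Of the 5 type VI chains 0 passed. Col6a1 and Col6a2, which assemble with Col6a3 into the beaded filaments of endoneurium and muscle, differed by 0.07 and 0.03. Col6a1 read 8.54, 8.37, 8.45 and 9.35 on daDREAM arrays, against 8.09, 8.68, 8.67 and 8.98 on control arrays, with daDREAM replicate 4 again highest. Col6a3 read 9.07, 8.88, 8.72 and 9.41 on daDREAM arrays, against 8.38, 8.79, 8.84 and 8.79 on control arrays. Its difference was 0.32 (95% interval -0.002 to 0.642, limma adjusted p = 0.28). Control replicate 1 was lowest, and without it the difference was 0.21. Col6a4, a further chain of the family in mouse, read 5.94, 5.98, 6.10 and 6.23 on daDREAM arrays, against 6.43, 6.31, 6.27 and 6.47 on control arrays. The groups did not overlap, and the difference of -0.31 did not pass (95% interval -0.49 to -0.12, limma adjusted p = 0.098). Col6a4 too read close to the level of 6, and its other probe set, under 6 in both groups, differed by -0.05.

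Of the 9 fibril-associated collagens 0 passed, with differences from -0.27 to 0.31. Col9a3, a chain of type IX known from cartilage, read 8.04, 7.41, 7.67 and 7.93 on daDREAM arrays, against 7.40, 7.60, 7.65 and 7.15 on control arrays (difference 0.31, limma adjusted p = 0.28). The groups overlapped, with control replicate 4 lowest, and Col9a1 and Col9a2 differed by 0.04 and 0.03. Col19a1 read 6.66, 6.91, 6.82 and 6.63 on daDREAM arrays, against 6.63, 6.53, 6.57 and 6.44 on control arrays. It differed by 0.21 at this probe set (limma adjusted p = 0.22), by 0.45 at another and by -0.28 at the last, so its direction depended on the probe set. Col20a1 read 7.87, 7.27, 7.18 and 7.37 on daDREAM arrays, against 7.82, 7.52, 7.59 and 7.85 on control arrays. The first daDREAM array was the highest of all and the other daDREAM arrays the lowest, and all 4 probe sets lay below 0, from -0.31 to -0.21, none passing. Col12a1, Col14a1, Col16a1 and Col22a1 lay between -0.11 and -0.01.

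The remaining collagens differed little between groups. The multiplexins Col15a1 and Col18a1, proteoglycan collagens of vascular and nerve basement membranes, differed by -0.22 and 0.16. Col18a1 read 8.24, 8.05, 7.88 and 8.18 on daDREAM arrays, against 7.93, 8.26, 7.81 and 7.70 on control arrays, with overlap, and both its probe sets gave 0.16. Transmembrane collagens Col13a1, Col17a1, Col23a1 and Col25a1 lay at -0.12 to -0.01, although a second Col25a1 probe set read 6.99 to 7.08 on daDREAM arrays, against 6.42 to 6.97 on control arrays (0.38, limma adjusted p = 0.085 over probe sets). Short-chain collagens Col8a1 and Col8a2, known from vessels and the eye, differed by 0.07 and 0.09, and Col10a1, near background, by -0.045. Col7a1, the anchoring fibril of skin, differed by -0.16 and Col26a1 by -0.12. Over the 46 further probe sets of the 51 genes, 31 averaged 6 or more in a group, and of these 19 had the sign of the brightest probe set and 12 the opposite sign. Among all 97 probe sets 1 passed, that of Postn, against 2.74% of 45037 probe sets.

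The arrays differed in matrix expression within each group, and daDREAM replicate 4 stood out. Of the 51 genes 22 (43.1%) had the highest of their 8 values on that array, against 9.37% of all genes, and 14 (27.5%) on control replicate 4, against 19.9%. The lowest value lay on daDREAM replicate 4 in 0 genes, against 8.57% of all genes, and on daDREAM replicates 2 and 3 in 11 genes each (21.6%), against 10.1% and 13.0% of all genes. It lay on control replicate 1 in 15 genes (29.4%), against 11.4%. The median deviation of the 51 genes from their own means was 0.19 on daDREAM replicate 4 and 0.15 on control replicate 4, against -0.19 on daDREAM replicate 2 and -0.17 on control replicate 1, while over all genes these array medians lay between -0.02 and 0.02. The median SD within a group was 0.23 for the 51 genes and 0.13 for all genes, and it exceeded the all-gene median in 42 of 51.

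In 16 of the 51 genes (31.4%) the arrays with Xist signal lay above all other arrays of their own group, against 4.57% of all genes, and in 0 genes they lay below, against 8.33%. The 16 were Col1a1, Col1a2, Col3a1, Col4a1, Col4a2, Col4a4, Col4a5, Col5a2, Col6a2, Col7a1, Col11a1, Col11a2, Col14a1, Col15a1, Ogn and Dpt, chosen by this pattern, which carries no test. Postn, Dcn, Lum and Thbs4 were not among them. Beside this pattern, daDREAM replicate 4 also had the highest prolactin signal (Prl 12.50, with control replicate 3 at 11.86, against 6.72 to 9.42 elsewhere), and Schwann cell genes as a list summed to 64272 linear signal units there, against 49681 to 53494 on the other daDREAM arrays. On control replicates 3 and 4 that list summed to 58446 and 60914, against 51242 and 52145 on control replicates 1 and 2. The summed signal of 12 fibroblast markers was 17316 on daDREAM replicate 4, against 14835 to 16038 on the other daDREAM arrays. On control replicates 3 and 4 it was 16641 and 15555, against 14504 and 16633 on control replicates 1 and 2. Most of that sum comes from the brightest listed genes, Thy1 and Gsn (daDREAM means 12.84 and 12.31), so it says little about the dimmer markers. Which cells gave the Thy1 and Gsn signal was not tested. The part of these cell types in the collagen pattern was not tested.

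**Figure D3:**
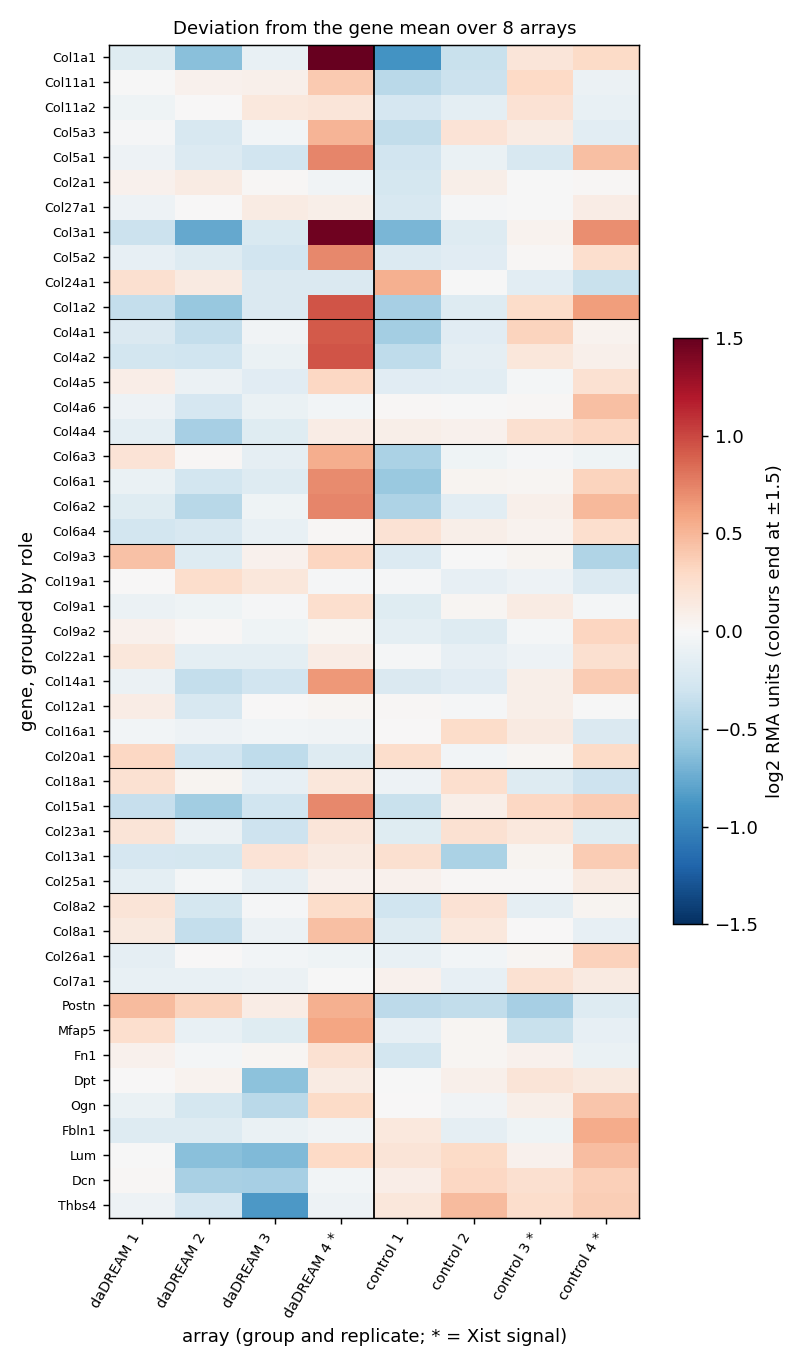
Deviation of each gene from its own mean over 8 arrays, in log2 RMA units (colour; red above, blue below, colours end at ±1.5), for the 47 genes that averaged 6 or more in a group. Columns are arrays, daDREAM left and control right, with an asterisk on the arrays with Xist signal. Red in Col1a1, Col3a1, Col1a2, Col4a1 and Col4a2 is deepest on daDREAM replicate 4, with paler red for Col3a1 and Col1a2 on control replicate 4. Postn is red on all daDREAM arrays and blue on all control arrays.

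Genes that make, crosslink, degrade or bind the matrix were counted in 7 lists with 121 measured genes, of which 5 passed (4.13%, against 2.00% of all genes). Of 27 genes of collagen synthesis and crosslinking 2 rose, 1 fell and 24 did not pass, with a median of 0.03. P4ha1, a catalytic subunit of the prolyl 4-hydroxylase that stabilises the collagen helix, read 9.03, 9.14, 9.01 and 9.23 on daDREAM arrays, against 8.71, 8.84, 8.63 and 8.66 on control arrays. The groups were apart, the gene was 1.31-fold higher (limma adjusted p = 0.026), and its other probe set rose too (0.56, adjusted p = 0.0086 over probe sets). P4ha3, an alternative catalytic subunit, read 7.33, 7.13, 7.23 and 7.23 on daDREAM arrays, against 8.07, 8.01, 7.78 and 7.56 on control arrays, 1.54-fold lower (adjusted p = 0.011). P4ha1 and P4ha3 thus moved in opposite directions, and the related P4ha2 differed by 0.21 without passing (limma adjusted p = 0.26). P4ha3 is represented by 1 probe set, so no further probe set could check it.

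Colgalt1, which adds galactose to hydroxylysine in collagen, rose 1.33-fold (9.38 ± 0.12 in daDREAM ganglia and 8.97 ± 0.09 in control ganglia, SD, n = 4 each, limma adjusted p = 0.024), and its other probe set differed by 0.27 and missed the threshold (adjusted p = 0.093 over probe sets). Serpinh1, the collagen chaperone HSP47, differed by 0.64 at its brightest probe set without passing (adjusted p = 0.17). Its other probe set, nearly as bright, read 10.34, 10.11, 10.25 and 10.70 on daDREAM arrays, against 9.34, 9.64, 9.19 and 9.81 on control arrays, and was higher by 0.86, passing over probe sets (adjusted p = 0.0089).

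In the list of collagen turnover, 1 of 17 rose, 1 fell and 15 did not pass. Mmp2, gelatinase A, which cleaves denatured collagen and type IV collagen, read 9.29, 9.06, 9.25 and 10.10 on daDREAM arrays, against 8.39, 8.80, 8.29 and 8.15 on control arrays. All daDREAM arrays lay above all control arrays, with replicate 4 highest, as in Col1a1, Col1a2 and Col3a1. Mmp2 was 2.02-fold higher (difference 1.02, 95% interval 0.57 to 1.47, limma adjusted p = 0.027), and its other probe set was higher by 1.08, passing over probe sets (adjusted p = 0.010). Without the 3 arrays with Xist signal the difference was 0.61 (adjusted p = 0.099), and without daDREAM replicate 4 it was 0.79 and passed. Timp3, an inhibitor of metalloproteinases bound to matrix, read 10.94, 10.86, 10.87 and 11.05 on daDREAM arrays, against 11.19, 11.35, 11.59 and 11.77 on control arrays. It was 1.46-fold lower (adjusted p = 0.036), while its 3 other probe sets differed by -0.24, 0.08 and 0.01, none passing, so the fall rests on 1 of 4 probe sets.

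On leaving out 1 array at a time, differences kept their sign and ranged from 0.35 to 0.44 for P4ha1, from 0.37 to 0.46 for Colgalt1, from 0.79 to 1.15 for Mmp2, from -0.64 to -0.45 for Timp3 and from -0.72 to -0.55 for P4ha3, but some calls were lost. P4ha1 lost its call without control replicate 1, 3 or 4 or without daDREAM replicate 2 or 4 (limma adjusted p between 0.053 and 0.097), and Mmp2 without control replicate 1, 3 or 4 or without daDREAM replicate 1 or 3 (adjusted p between 0.056 and 0.085). Colgalt1 lost it in 6 of the 8 fits that left out 1 array, those without control replicate 1, 2 or 4 or daDREAM replicate 1, 2 or 4, and Timp3 in 6, those without control replicate 3 or 4 or any daDREAM replicate. P4ha3 passed in all 8 such fits.

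**Figure D4:**
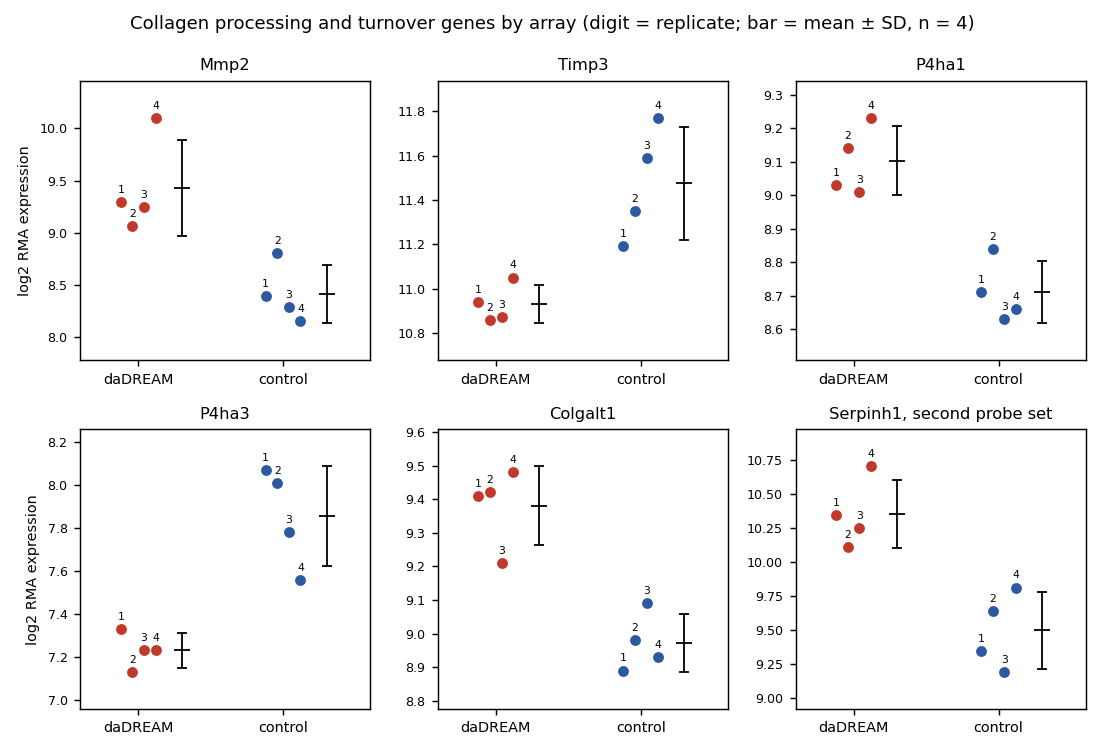
Log2 RMA expression (y axis, not starting at 0) of Mmp2, Timp3, P4ha1, P4ha3, Colgalt1 and the other probe set of Serpinh1 on each array, daDREAM left and control right. Points are arrays marked with their replicate number, the bar is the mean ± SD, n = 4. The groups do not overlap in any of the 6 panels, and daDREAM replicate 4 is the highest point for Mmp2 (10.10).

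In the other 5 lists 0 genes passed with limma. Among 16 further proteoglycans and fibril regulators, tenascin C (Tnc), a matricellular protein, differed by 0.47 (adjusted p = 0.061) and fibromodulin (Fmod), which competes with lumican for collagen, by 0.45 (adjusted p = 0.091). All 6 Fmod probe sets lay above 0, from 0.22 to 0.55, none passing. Among 13 elastic fibre genes, the latent TGF-beta binding protein Ltbp1 differed by -0.57 (adjusted p = 0.075) and Ltbp2 by -0.30. The 14 laminin and basement membrane genes had a median of -0.01, with perlecan (Hspg2) at -0.23 (adjusted p = 0.26). The 15 receptors, integrins and discoidin receptors among them, had a median of 0.01, with Adgrg1 at 0.31 and Itgb3 at 0.26. Among 19 genes of TGF-beta and fibroblast signalling, Ccn2, a matricellular target of TGF-beta, differed by -0.34 (adjusted p = 0.084) and Pdgfb by -0.30. Ski, with the next smallest limma p, differed by 0.32.

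Markers of the cells that could supply matrix genes moved in both directions. Of 12 fibroblast markers 0 passed with limma, with a median of -0.02. Summed linear signals of these markers were 14835 to 17316 on daDREAM arrays, against 14504 to 16641 on control arrays. Most of that sum comes from Thy1 and Gsn, and which cells gave their signal was not tested. Of 12 meningeal markers 2 rose, Igfbp2 (0.71, adjusted p = 0.0092) and the transporter Slc6a13 (0.46, adjusted p = 0.038), and 10 differences lay above 0. Their summed signal was 23977 to 29825 on daDREAM arrays, against 19546 to 25121 on control arrays. Most of that sum comes from Ptgds (daDREAM mean 14.36), which differed by 0.21 without passing (limma adjusted p = 0.31). The sum thus says little about the dimmer meningeal markers. Of 6 perineurial markers 1 fell, Cldn1, a tight junction protein (-0.99, adjusted p = 0.030, with its next probe set at -0.46 without passing), and the sum was 3075 to 3648 on daDREAM arrays, against 3471 to 4052 on control arrays. Of 9 endothelial markers 1 rose, the tight junction gene Cldn5 (0.57, adjusted p = 0.0098), while 6 differences lay above 0 and 3 below. The endothelial sum was 2975 to 3439 on daDREAM arrays, against 2729 to 3055 on control arrays.

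Skeletal muscle markers summed to 1504 to 1686 on daDREAM arrays, against 1677 to 4116 on control arrays, with 0 of 17 passing. Of 9 sensory neuron markers, 9 smooth muscle and pericyte markers, 9 cartilage and bone markers, 6 tendon markers, 8 macrophage markers, 8 pituitary markers, 7 Schwann cell markers and 6 satellite glia markers 0 passed in each list with limma. Both group means lay under 6 in 2 of the 9 cartilage and bone markers, Matn1 among them, and in 2 of the 6 tendon markers, Tnmd and Kera, while the rest of both lists lay above that level. Of 9 central nervous system markers 1 rose, Aqp4 (0.76, adjusted p = 0.017), and all 9 differences lay above 0, with sums of 7593 to 11291 on daDREAM arrays, against 3537 to 6442 on control arrays. The part of these cell types in the values of Postn, Dcn, Lum, Thbs4 and Mmp2 was not tested.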

How the data were processed

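Deposited values are log2 intensities for each probe set. The submitters' processing notes name RMA and affy as the authors' tools, with no version. RMA brings the probe intensities of all arrays to the same distribution before probe sets are summarised. A difference is thus measured against the rest of the array. Values ran from 3.39 to 14.94, with array medians of 7.09 to 7.13. No 2 arrays were identical, and array correlations were 0.983 to 0.996. Of 45101 probe sets 64 controls were left out. Platform annotation gave 34945 a single symbol, updated by gene identifier through RefSeq (34741 matched), and a gene took its brightest probe set.

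The test was two-sided, with limma 3.58.1 (R 4.3.3; lmFit then eBayes) and group as the only term, with Benjamini-Hochberg adjustment over all 18193 genes, or over 45037 probe sets where stated. Tested on simulated data over 18193 genes for daDREAM minus control, the share of altered genes found was 68.8% at a log2 size of 0.5. It was 98.8% at 1 and 100% at 2, and 5.43% of calls were false. These rates are for all genes together. The collagens and fibrous matrix genes varied more within a group (median SD 0.229, against 0.128 for all genes). The rates therefore do not show what share of altered genes would be found among the collagens and fibrous matrix genes. Means below 6 were taken as near background, and the number of arrays limits precision. Summed signals are sums of 2 to the power of the log2 value. Figures were drawn with matplotlib 3.10.9.

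The members, lists, tests and alternatives were chosen with earlier results of these data known. Full values are given for genes that passed, the 8 largest differences in each direction with a group mean of 6 or more (9 below 0, with a tie), and Col1a1, Col1a2, Col3a1, Col4a1, Col6a1, Postn, Fn1 and Dcn. From other lists come up to 4 genes that passed or the 1 or 2 with the smallest p. Other genes were named after their values were seen.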

Additional observations from a re-analysis of the deposited data

Results flagged for a closer look

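In 5 of the 112 groups of 4 arrays examined (51 genes and the 5 related genes that passed, each in both groups), 1 array lay far from the other 3, by Dixon's test of the gap over the range. Chance alone flags about 1 in 20 groups. On daDREAM replicate 4, Col4a2 (10.17) and Col5a2 (10.48) lay far above the other daDREAM arrays. Col4a6 was high on control replicate 4 (7.05), Col6a3 low on control replicate 1 (8.38), and Dpt low on daDREAM replicate 3 (5.45).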

How the results depend on the processing

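Postn stayed above 0 in all 22 alternatives (0.64 to 0.81) and passed in 20. It missed with the unequal-variance test per gene (adjusted p = 0.14) and without the arrays with most Acta1. The number of the 51 genes that passed, 1 as reported, was 3 with the replicate block (Postn, Dcn and Thbs4), 2 with the probe set of largest SD, 2 with array weights, 4 at a threshold of 0.10 and 1 to 2 on leaving out 1 array. It was 0 with the unequal-variance test (5 at an unadjusted p under 0.05) and 0 without the arrays with most Acta1 (limma, 9 unadjusted). Passing probe sets of these genes, 1 as reported, became 4 with the replicate block, 2 after renewed quantile normalization, 3 with a trend and robust prior, 3 with array weights, 0 with the unequal-variance test (11 unadjusted), 2 without the arrays with most Acta1, 2 without those with Xist signal, 6 at a threshold of 0.10 and 1 to 2 without 1 array. The number of related genes that passed, 5 as reported, was 9 with the replicate block, 8 with the probe set of largest SD and 9 with array weights. It was 9 at 0.10 and 2 to 4 without 1 array, not always from the reported 5. Without the arrays with Xist signal it was 3 (P4ha3, Ltbp1 and Serpinh1), so P4ha3 alone of the reported genes passed there. After renewed quantile normalization it stayed at 5, but with Ccn2 and Tnc in place of P4ha1 and Colgalt1. The number became 0 with the unequal-variance test (13 unadjusted), 0 without the arrays with most Acta1 (limma, 17 unadjusted) and 0 without those with most Gh (limma, 18 unadjusted). With the replicate block all genes called rose to 672, and array weights gave 494, the probe set of largest SD 697, the unequal-variance test 49, the arrays without most Acta1 171, without most 18S 227, without most Gh 98 and without Xist signal 213, and leaving out 1 array gave 229 to 349, against 364.

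Of 22 genes followed, 15 kept their sign in every alternative and 7 did not. Col1a1 turned to -0.09 without the arrays with most Gh and ranged from -0.12 to 0.65 on leaving out 1 array. Without those with most Gh, Col3a1 was -0.48, Col4a1 -0.08 and Col6a1 -0.13. Without the arrays with most Acta1, Col3a1 was -0.21 and Col6a1 -0.15, and without those with most 18S Col4a1 was -0.01. Without those with Xist signal Col18a1 was -0.038. Col1a2 was 0.027 with the mean of its probe sets, 0.018 with the probe set of largest SD and 0.15 with Xist signal as a block, and Fbln1 was 0.17 and 0.46 with the mean and the largest SD. On leaving out 1 array Col1a2 ranged from -0.436 to 0.088, Col3a1 from -0.41 to 0.34, Col4a1 from -0.14 to 0.29 and Col6a1 from -0.15 to 0.20. The sign of Fbln1 depends on the probe set. The median difference of the 51 genes stayed between -0.12 and 0.08. The cause of the other changes was not tested. Same-numbered arrays' deviations from their group means correlated at 0.209, 0.006, 0.331 and 0.36. By this measure daDREAM replicates 3 and 4 were closest to the control of the same number. Replicates 1 and 2 of the daDREAM group were closest to control replicates 2 and 1. The replicate numbers were not taken as pairs in the main test, and these values do not settle whether same-numbered arrays were handled together.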
